A study of Mus musculus with 18 samples.

Results

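APRIL knockout (KO) macrophages were compared with wild-type (WT) macrophages after exposure to lipopolysaccharide (LPS), using the 8 columns of the deposited RPKM table that carry these labels, of 18 columns in all. Both groups were bone marrow derived macrophages, labelled with strain C57BL/6J and with a preterm birth time point at day 16 of gestation, and both received 10 ng/ml LPS for 4 h. They differed by genotype: WT, or APRIL KO, which lacks the cytokine APRIL encoded by Tnfsf13. Titles number the columns 1 to 4 in each group, but the descriptions give them only 2 library numbers; the columns of 1 number were averaged, which left WT libraries 14 and 15 and APRIL KO libraries 20 and 21. No label tells if each library is its own animal or culture, or how the alleles were made. The p-values below thus measure only the spread between libraries, which was estimated from these 4 together with the BAFF KO libraries with LPS. The 4 libraries held 5121833 to 5695536 reads in listed genes. Side values come from BAFF KO macrophages given the same LPS (libraries 17 and 18) and from 1 unstimulated library per genotype (WT library 13, APRIL KO library 19 and BAFF KO library 16).

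APRIL and its relative BAFF are ligands of the tumour necrosis factor family. Both bind the receptors TACI and BCMA, BAFF alone binds BAFF-R, and APRIL also attaches to heparan sulfate chains such as those of syndecans. They are best known for sustaining B cells and plasma cells, while macrophages are among the cells that make them. LPS is sensed by Toll-like receptor 4 and drives macrophages to make cytokines, chemokines, interferon and the products of interferon-stimulated genes.

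Few genes were called between APRIL KO and WT under LPS, with 2 libraries per group. Of 9934 tested genes 21 passed the test (0.211%; limma on log2(RPKM + 1), Benjamini-Hochberg adjusted p below 0.05), 1 higher (0.0101%) and 20 lower (0.201%) in APRIL KO. The lower genes were Tnfsf13 itself, 18 genes of the skeletal muscle list, and Trim72, a membrane repair protein of striated muscle. The higher gene was Gm8995, annotated as a pseudogene. Macrophage cytokines, chemokines and LPS receptors did not pass the test, and for 9425 genes (94.9%) the 95% interval of the difference lay within 2-fold either way. At an unadjusted p below 0.05 there were 781 higher genes (7.86%) and 758 lower genes (7.63%). Limma voom on reads recovered from the RPKM values called 52 higher (0.523%) and 32 lower (0.322%). The calls were sensitive to which libraries shared the estimate of spread. With only the 4 libraries compared 1 gene was called, and with only the LPS libraries 28. Leaving out 1 of the 4 libraries lost calls among the 21 in each case and added genes outside them. Calls among the 21 were also lost when BAFF KO library 17 or 18 was left out. The log2 difference of Tnfsf13 was -3.88, -3.51, -3.69 and -3.69 without library 14, 15, 20 and 21.

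**Figure D1:**
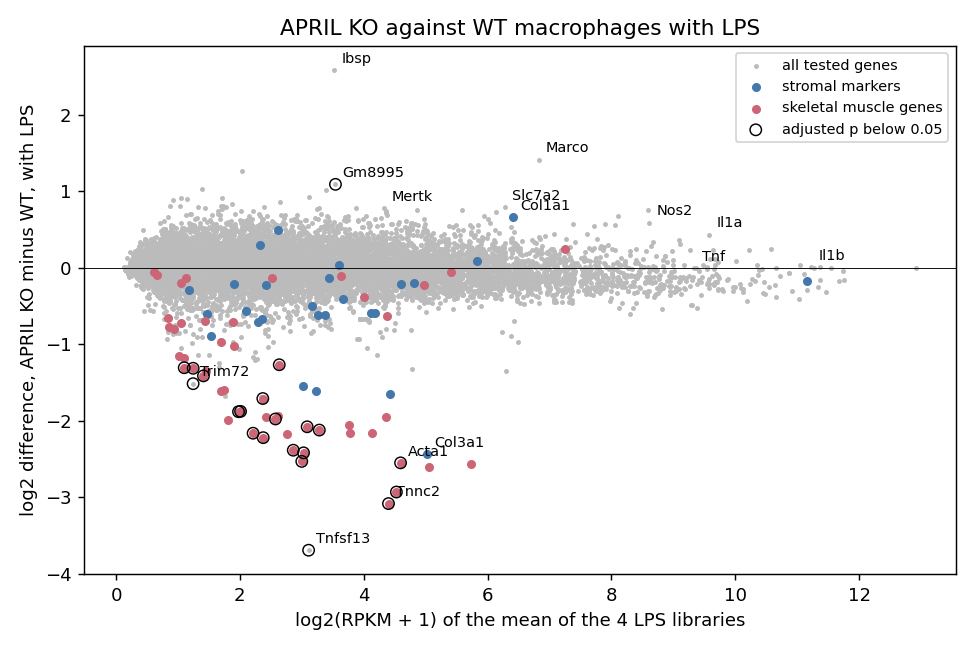
Log2 difference between APRIL KO and WT with LPS (y axis) against the mean level of the 4 libraries as log2(RPKM + 1) (x axis), 1 point per tested gene; coloured points are skeletal muscle genes and stromal markers, and rings mark the 21 genes with adjusted p below 0.05. Tnfsf13 and muscle genes lie far below 0, and the most abundant inflammatory genes lie close to 0.

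Tnfsf13, the targeted gene (chr11:69682846-69685784, minus strand, mm10), matched the labels in every library. It had 119 and 134 reads in WT libraries 14 and 15 (12.99 and 17.08 RPKM) and 0 reads in APRIL KO libraries 20 and 21, where the table lists its floor of 0.233 RPKM. With 3 reads over the group as the limit of a count of 0, this is at least 91.8-fold lower. It also had 0 reads in unstimulated APRIL KO library 19, against 392 in unstimulated WT library 13, and the BAFF KO libraries with LPS held 169 and 226.

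Genes around Tnfsf13 were read as a check on its locus. Of 24 tested neighbours on chromosome 11 none was called, voom called 0, and the median was -0.04. Of the 24, 1 was higher and 4 lower at an unadjusted p below 0.05, beside 7.86% and 7.63% of all tested genes. Tnfsfm13, the readthrough gene that joins Tnfsf12 to Tnfsf13 and overlaps both, kept 228 and 206 reads in APRIL KO against 309 and 195 in WT (log2 difference -0.29, 95% interval -0.73 to 0.15), and APRIL KO library 20 lay between the WT libraries. Reads in exons shared by these overlapping genes cannot be assigned with certainty. Mpdu1, a gene of dolichol-linked sugar use, had the smallest p of the neighbours, at 15.52 ± 0.73 RPKM in WT and 11.34 ± 0.92 in APRIL KO (mean ± SD, n = 2, log2 difference -0.42, adjusted p = 0.197).

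Apart from Tnfsf13, no other of the 18 tested ligands, receptors and adaptors of the BAFF and APRIL axis passed the test, in limma or in voom, and the list median was 0.00 beside 0.01 over all tested genes. The receptor TACI (Tnfrsf13b) was low, at 1.13 ± 0.19 RPKM in WT and 1.12 ± 0.53 in APRIL KO (mean ± SD, n = 2). Syndecan-4 (Sdc4), a heparan sulfate proteoglycan at 14.29 RPKM in unstimulated WT, was at 228.7 and 240.1 RPKM in WT and 241.3 and 244.1 in APRIL KO (log2 difference 0.05, 95% interval -0.13 to 0.23). The same gene was at 109.1 and 108.7 RPKM in BAFF KO, and APRIL KO against BAFF KO gave 1.15 (adjusted p = 0.000398). Syndecan-1 (Sdc1) differed by -0.18 (95% interval -0.45 to 0.08). Traf3, an adaptor that restrains noncanonical NF-kB signalling, had the largest positive difference of the axis, 0.48, from 2.27 and 1.59 RPKM to 3.01 and 3.13 (adjusted p = 0.256). Furin, the protease that releases APRIL, differed by 0.33 (adjusted p = 0.298). Nfkb2, the noncanonical NF-kB subunit, differed by 0.02 (95% interval -0.18 to 0.22).

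Tnf, Il1b and Il6 reached levels in APRIL KO that overlapped those in WT. Among proinflammatory cytokines, of 25 tested members none was called by limma or by voom, and the median difference was 0.01. At an unadjusted p below 0.05, 4 were higher and 1 lower, beside 7.86% and 7.63% of all tested genes. Without APRIL KO library 20 0 were higher, and without WT library 14 4 were lower. Tnf, the founding cytokine of the ligand family, was at 622.8 and 673.5 RPKM in WT and 693.0 and 600.5 in APRIL KO (log2 difference -0.01, 95% interval -0.22 to 0.21). Il1b, the secreted interleukin-1 that inflammasomes activate, was at 2298 and 2492 RPKM in WT and 2269 and 2549 in APRIL KO (0.01, 95% interval -0.20 to 0.21). The ranges of the genotypes overlapped for both genes. Il6, the acute-phase cytokine, differed by 0.02 (95% interval -0.31 to 0.36), and Il10, an anti-inflammatory cytokine, by -0.16 (95% interval -0.43 to 0.11). A p that misses the threshold does not show that the genotypes act alike, but for these 4 genes the intervals leave out a 2-fold difference.

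Interleukin-1 alpha and the shared IL-12 and IL-23 subunit stood slightly higher in APRIL KO. Il1a was at 677.6 and 623.6 RPKM in WT and 966.2 and 798.0 in APRIL KO (log2 difference 0.43, 95% interval 0.16 to 0.71, adjusted p = 0.205). Il12b was at 51.90 and 51.57 RPKM in WT and 71.96 and 61.39 in APRIL KO (0.36, 95% interval 0.10 to 0.61, adjusted p = 0.23). Tnfsf15, another ligand of the family, was at 4.29 and 5.27 RPKM against 9.79 and 6.97 (0.69, adjusted p = 0.248). For these 3 genes both APRIL KO libraries lay above both WT libraries, as did 25.4% of all tested genes. Csf2, which encodes GM-CSF, lay the other way at 1.78 and 2.61 RPKM against 1.05 and 1.17 (-0.58, adjusted p = 0.228).

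**Figure D2:**
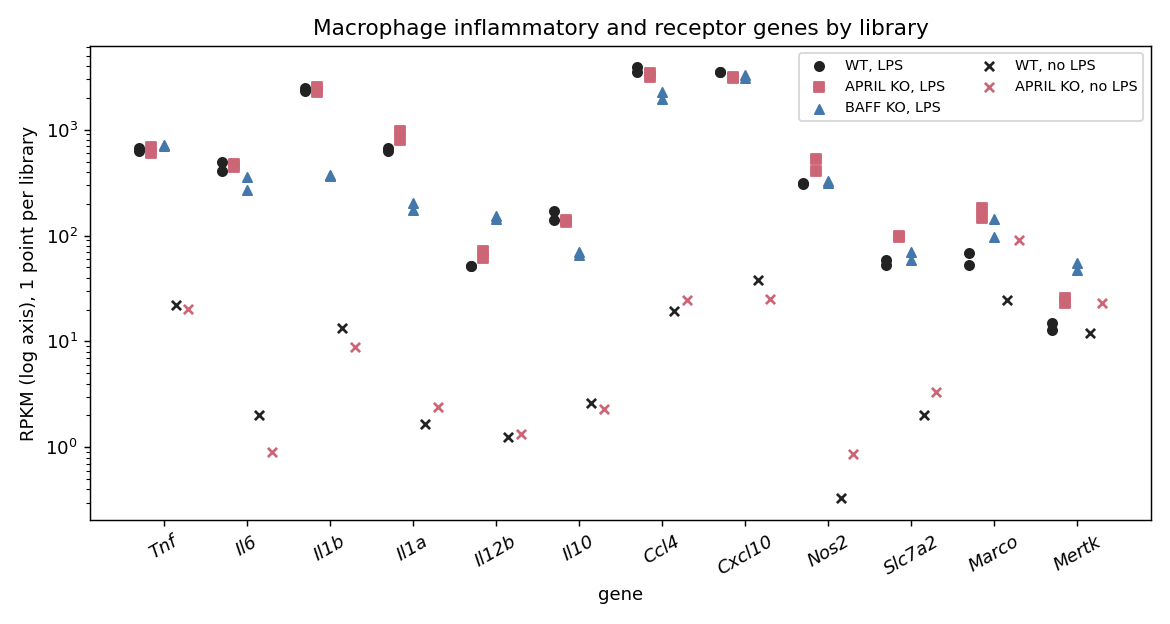
RPKM on a log axis (y) of 12 cytokine, chemokine, enzyme and receptor genes (x), 1 point per library, for WT, APRIL KO and BAFF KO with LPS and for WT and APRIL KO without LPS. Tnf, Il6 and Il1b points of APRIL KO overlap those of WT, while both APRIL KO points of Nos2, Slc7a2, Marco and Mertk lie above both WT points.

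Chemokine lists had small negative median differences, -0.04 for CC and -0.17 for CXC chemokines. Over 18 alternatives the CC median lay between -0.14 and 0.09 and the CXC median between -0.28 and -0.06. For 4 CXC chemokines both APRIL KO libraries lay below both WT libraries and for 0 above, beside 22.6% and 25.4% of all tested genes. None of 11 CC and none of 11 CXC chemokines was called by limma or by voom. In each group 1 was lower and 0 higher at an unadjusted p below 0.05, beside 7.63% and 7.86% of all tested genes. Ccl4, a chemokine that attracts monocytes and T cells, was at 3481 and 3863 RPKM in WT and 3419 and 3125 in APRIL KO (log2 difference -0.17, 95% interval -0.41 to 0.08). Cxcl10, an interferon-inducible attractor of T cells, was at 3481 and 3480 RPKM in WT and 3065 and 3128 in APRIL KO (-0.17, 95% interval -0.36 to 0.02). Ccl8 had the smallest p of the CC group, at 3.40 and 7.55 RPKM against 2.13 and 1.40 (-1.16, 95% interval -1.86 to -0.46, adjusted p = 0.2). Cxcl16, a chemokine with a membrane-bound form, had the smallest p of the CXC group (-0.24, adjusted p = 0.268). Cxcl5 was at 10.27 RPKM in WT library 14 alone and between 0.46 and 1.85 in the other 3 libraries, so its spread exceeded the difference.

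BAFF KO macrophages served to show where APRIL KO stood apart from the other knockout. APRIL KO against BAFF KO under LPS called 550 genes (5.54%), 304 higher (3.06%) and 246 lower (2.48%); without BAFF KO library 17 the count was 96, and without library 18, 20 or 21 it was 157, 148 or 145. Il1b was at 373.4 and 368.8 RPKM in BAFF KO, and APRIL KO was higher by 2.69 on the log2 scale (adjusted p = 2.3e-05). Il1a was higher in APRIL KO than in BAFF KO by 2.21 (adjusted p = 0.000173). Il12b, by contrast, was at 154.2 and 144.0 RPKM in BAFF KO, and APRIL KO was lower by 1.15 (log2 difference -1.15, adjusted p = 0.00199). Cxcl9, an interferon-gamma responsive chemokine, was at 130.8 and 132.6 RPKM in BAFF KO, 33.09 and 35.35 in APRIL KO and 36.71 and 39.29 in WT. APRIL KO against BAFF KO gave -1.92 for Cxcl9 (adjusted p = 0.000173) and APRIL KO against WT -0.15 (95% interval -0.39 to 0.10). BAFF KO against WT called 828 genes (8.34%), 396 higher (3.99%) and 432 lower (4.35%). These comparisons share libraries.

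Interferon-stimulated genes had differences of both signs and guanylate-binding genes positive ones, and none passed the test in limma. Among 47 type I interferon-stimulated genes none was called by limma or by voom. The median difference was 0.06 (25th to 75th percentile -0.115 to 0.275). At an unadjusted p below 0.05 voom had 18 higher and 7 lower. Limma had 16 higher and 1 lower, beside 7.86% and 7.63% of all tested genes. The 16 became 2 without WT library 15, 7 without APRIL KO library 20 and 6 without library 21, and the 1 lower became 4 without WT library 14. Mx1, an antiviral GTPase, was at 496.5 and 492.4 RPKM in WT and 609.1 and 611.8 in APRIL KO (log2 difference 0.30, adjusted p = 0.189). Ifnar1, a chain of the type I interferon receptor, differed by 0.41 (adjusted p = 0.186).

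All 15 tested guanylate-binding proteins and immunity-related GTPases, which act on vacuoles that hold pathogens, had a positive difference, from 0.04 to 0.75 with a median of 0.22. For 10 of the 15 both APRIL KO libraries lay above both WT libraries and for 0 below, beside 25.4% and 22.6% of all tested genes. Limma called 0 of them and voom called 1. Of the 15, 5 were higher at an unadjusted p below 0.05, beside 7.86% of all tested genes, and fewer were without library 15, 20 or 21. Gbp7 had the largest difference, from 37.86 and 32.15 RPKM to 63.11 and 55.88 (0.75, 95% interval 0.44 to 1.06, adjusted p = 0.0996). Gbp9 followed in p at 72.20 and 71.64 RPKM against 92.13 and 97.41 (0.39, adjusted p = 0.192). Gbp2, the most abundant, was at 1308 and 1254 RPKM in WT and 1301 and 1331 in APRIL KO (0.04). The median of the list stayed positive over 18 alternative analyses, between 0.18 and 0.28. In BAFF KO the same list stood 0.35 above WT by its median, and APRIL KO against BAFF KO called none of the 15, with a median of -0.10.

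The higher called gene, Gm8995 (chr7:106504239-106511671, minus strand, mm10), is annotated as a transcribed unprocessed pseudogene. It was at 6.77 and 6.17 RPKM in WT and 14.74 and 14.98 in APRIL KO (log2 difference 1.09, 95% interval 0.78 to 1.40, adjusted p = 0.0291). The libraries of the genotypes did not overlap, and BAFF KO lay between them at 11.03 and 11.59. Without LPS it was at 1.46 RPKM in WT and 1.66 in APRIL KO. The reads of a pseudogene may be shared with near-identical copies, and the call was lost when any 1 of the 6 LPS libraries was left out (adjusted p 0.102 to 0.202).

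A scavenger receptor and an arginine transporter of macrophages lay just short of the threshold. Marco, a scavenger receptor for bacteria and particles, was at 52.92 and 69.12 RPKM in WT and 181.5 and 145.6 in APRIL KO (log2 difference 1.41, 95% interval 0.94 to 1.88, adjusted p = 0.0533). Both APRIL KO libraries lay far above both WT libraries, and unstimulated Marco was at 24.72 RPKM in WT and 91.06 in APRIL KO. BAFF KO with LPS was at 143.1 and 97.04, and APRIL KO against BAFF KO gave 0.46 (adjusted p = 0.271). Slc7a2, a transporter that imports arginine, was at 59.13 and 52.51 RPKM in WT and 96.86 and 98.03 in APRIL KO (0.80, 95% interval 0.53 to 1.06, adjusted p = 0.0533). Here BAFF KO stayed near WT at 58.85 and 69.65, and APRIL KO was higher than BAFF KO by 0.60 (adjusted p = 0.0269). Voom placed both genes past the threshold (Marco adjusted p = 0.00683, Slc7a2 adjusted p = 0.00514). Limma gave adjusted p = 0.0495 for Marco and 0.0402 for Slc7a2 with only the LPS libraries. Without a filter it gave 0.134 and 0.126, and with the lower-index column of each library alone 0.217 and 0.263.

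Nos2, the inducible nitric oxide synthase that uses this arginine, was at 312.1 and 307.9 RPKM in WT and 408.5 and 532.6 in APRIL KO (log2 difference 0.59, 95% interval 0.30 to 0.88, adjusted p = 0.154). Acod1, the itaconate-producing enzyme, differed by 0.23 (adjusted p = 0.268), and Odc1, which opens polyamine synthesis, by -0.18 (95% interval -0.37 to 0.00). Limma called none of the 11 members of this group, and voom called 2, Slc7a2 and Nos2 (adjusted p = 0.0335). Mertk, a receptor for the uptake of apoptotic cells, was at 12.96 and 14.86 RPKM in WT and 23.21 and 25.75 in APRIL KO (0.77, 95% interval 0.50 to 1.05, adjusted p = 0.0654; voom adjusted p = 0.0176). In BAFF KO it was higher still, at 47.47 and 54.50, and APRIL KO lay below BAFF KO by 1.03 (log2 difference -1.03, adjusted p = 0.00397). For Mertk against WT, limma gave adjusted p = 0.0491 with median ratio scaling, 0.134 without a filter and 0.291 with the lower-index column alone. Of 28 genes of alternative activation and apoptotic cell uptake and of 51 scavenger, lectin and phagocytic receptors, limma called none. At an unadjusted p below 0.05, 5 and 10 were higher and 2 and 4 lower, beside 7.86% and 7.63% of all tested genes. Voom called 2 and 3, all higher.

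Other immune lists had no member called by limma. Cybb, the catalytic subunit of the phagocyte oxidase, had the smallest p of the antioxidant and oxidase list, at 235.3 and 194.9 RPKM against 340.5 and 290.2 (log2 difference 0.55, adjusted p = 0.164; voom adjusted p = 0.0447). Tlr8, an endosomal RNA sensor, had the smallest p among 23 Toll-like receptors and adaptors, at 7.45 and 4.62 RPKM against 12.96 and 12.76 (1.01, adjusted p = 0.164). The LPS co-receptor Cd14 overlapped between genotypes at 226.4 and 169.8 RPKM against 183.7 and 202.6 (-0.02). Rel, an NF-kB subunit, differed by 0.49 (adjusted p = 0.229), and Nlrp1b, an inflammasome sensor, by 0.81 from 0.25 and 0.75 RPKM to 1.32 and 1.89 (adjusted p = 0.197). Ptgs2, the inducible prostaglandin synthase, was chosen after its values were seen: it was at 186.6 and 154.1 RPKM in WT and 258.2 and 235.9 in APRIL KO (0.54, adjusted p = 0.154; voom adjusted p = 0.0299), and BAFF KO lay below both at 93.64 and 100.3. Lists of MHC class II and costimulation, complement, cholesterol synthesis, unfolded protein response and cell cycle genes had medians between -0.16 and 0.08 and no called member. The median of the MHC class II list was -0.16, but -0.37 without WT library 14, -0.05 without WT library 15, -0.24 without APRIL KO library 20 and 0.05 without APRIL KO library 21.

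**Figure D3:**
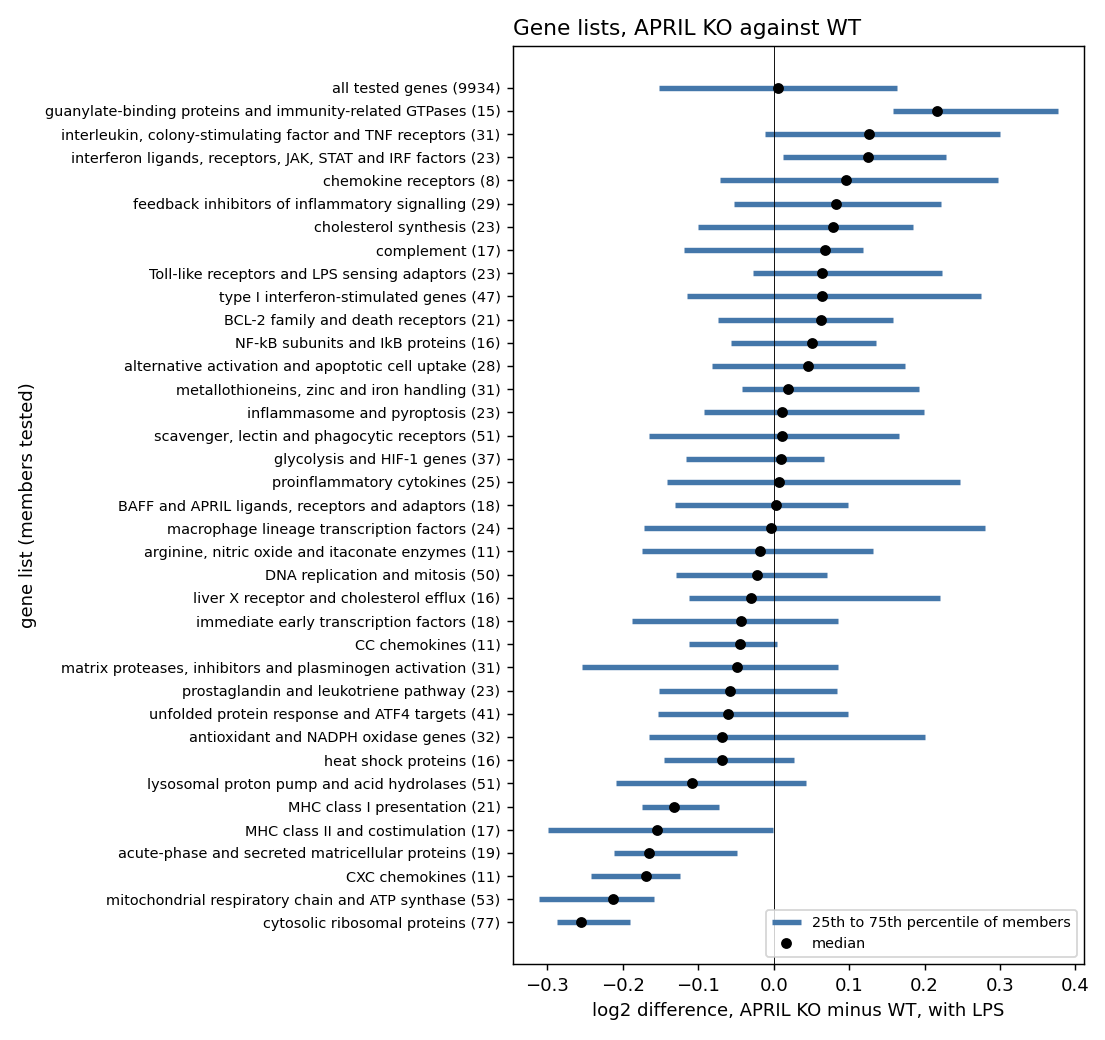
Median (point) and 25th to 75th percentile (bar) of the log2 difference between APRIL KO and WT with LPS (x axis) over the tested members of each pathway list (y axis, members in brackets), with all tested genes on top. Guanylate-binding proteins have the highest median (0.22), and ribosomal proteins (-0.26) and the respiratory chain (-0.21) the lowest.

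LPS-responsive genes as a class were set by the BAFF KO libraries, which are in neither group compared: 364 genes rose at least 4-fold with LPS there and 1505 fell at least 2-fold. Of the induced genes 1 was called, Gm8995; 152 (41.8%) had both APRIL KO libraries above both WT libraries and 49 (13.5%) both below, beside 25.4% and 22.6% of all tested genes. Voom called 14 of the induced genes higher and 0 lower, beside 0.523% and 0.322% of all tested genes. The median difference of the induced genes was 0.08, within 0.06 to 0.13 over the alternatives. Of the genes lowered by LPS 1 was called, Tnfsf13, and the median was -0.05. When the LPS response itself was compared between APRIL KO and WT, limma called 0 of 9934 genes and voom 0, with 337 at an unadjusted p below 0.05 (3.39%), 167 higher (1.68%) and 170 lower (1.71%). That contrast rests on 1 unstimulated library per genotype. In it Marco gave -0.43 (95% interval -1.25 to 0.39) and Mertk -0.12 (95% interval -0.59 to 0.36).

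Skeletal muscle genes made up most of the called difference. Of 135 listed symbols 66 were in the table and 52 were tested. Limma called 18 lower in APRIL KO and 0 higher, and 42 were lower at an unadjusted p below 0.05, beside 7.63% of all tested genes. In 44 both APRIL KO libraries lay below both WT libraries (22.6% of all tested genes did so). The list was written with knowledge that such genes differ among these libraries, so it is not independent evidence of the direction. Of the 52, 15 (6 of them called) passed the filter of 1 RPKM only through a WT group, with or without LPS. Those that passed through WT with LPS had to be lower in APRIL KO. The counts of the tested members lean negative by this choice and describe them only. These 15 had a median difference of -1.31, beside -1.94 for the 37 (12 called) that passed through a KO group. The median difference of the 52 was -1.50 beside 0.01 over all tested genes, and it lay between -2.66 and -1.30 over the alternatives. Without WT library 14, APRIL KO library 20 or BAFF KO library 17 or 18, 0 of the 52 were called, while the median stayed at -1.30 or below.

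The promoters of the 3 muscle genes with the largest falls are shown because these genes moved together. They are RefSeq sequences of GRCm38.p6, 250 bases before to 50 after the gene start, 5′ to 3′ on the minus strand. RefSeq's start differs from the outermost GENCODE M21 start, so the windows of Myl1 and Tnnc2 lie wholly or mostly inside the GENCODE gene. Capitals mark the E-box CAGCTG, a palindrome bound by myogenic regulators, the only motif searched.
Tnnc2 (chr2:164779685-164779984): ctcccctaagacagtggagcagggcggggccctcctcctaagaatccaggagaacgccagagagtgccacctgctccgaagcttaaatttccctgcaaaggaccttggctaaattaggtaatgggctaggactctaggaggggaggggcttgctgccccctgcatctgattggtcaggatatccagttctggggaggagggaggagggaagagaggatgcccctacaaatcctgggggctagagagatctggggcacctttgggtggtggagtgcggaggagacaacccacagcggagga
Myl1 (chr1:66945007-66945306): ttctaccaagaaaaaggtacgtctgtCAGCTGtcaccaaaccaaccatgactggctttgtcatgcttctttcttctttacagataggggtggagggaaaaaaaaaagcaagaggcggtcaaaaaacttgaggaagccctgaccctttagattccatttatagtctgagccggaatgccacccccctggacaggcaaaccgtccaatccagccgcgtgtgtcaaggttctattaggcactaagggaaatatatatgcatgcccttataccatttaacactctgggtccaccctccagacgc
Acta1 (chr8:123894726-123895025): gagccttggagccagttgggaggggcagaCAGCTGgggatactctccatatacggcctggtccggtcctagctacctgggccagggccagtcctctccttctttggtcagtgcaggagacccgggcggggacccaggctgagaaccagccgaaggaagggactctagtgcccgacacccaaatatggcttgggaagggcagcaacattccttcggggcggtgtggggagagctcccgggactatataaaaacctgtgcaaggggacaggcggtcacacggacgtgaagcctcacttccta
Of the called muscle genes 17 had a promoter entry, and 10 of these (58.8%) held CAGCTG on either strand, as did 23 of the 44 tested muscle genes with an entry (52.3%) and 18.3% of all 27025 genes with an entry (a gene with several entries counts once; 16.3% of all 32851 entries held it). The match describes the letters and is no evidence of binding.

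Among the contractile proteins, Tnnc2, the calcium-binding troponin of fast fibres, was at 47.65 and 26.09 RPKM in WT and 2.53 and 4.22 in APRIL KO (log2 difference -3.08, 95% interval -3.76 to -2.40, adjusted p = 0.0146). Myl1, a fast myosin light chain, was at 47.85 and 31.52 RPKM in WT and 2.85 and 6.10 in APRIL KO (-2.93, adjusted p = 0.0206). Acta1, skeletal muscle actin, was at 47.75 and 32.73 RPKM in WT and 4.50 and 7.74 in APRIL KO (-2.55, adjusted p = 0.0146). In each of these 3 genes the higher APRIL KO library was far below the lower WT library. Atp2a1, the calcium pump of the sarcoplasmic reticulum, fell by 2.53 (16.83 and 8.58 RPKM against 0.93 and 1.65, adjusted p = 0.0291). The other called members differed by -2.42 to -1.27; they include Des, the muscle intermediate filament, Myh3, the embryonic myosin heavy chain, Casq1, a calcium store protein, Chrna1, a subunit of the acetylcholine receptor, and Myog. Myog, a transcription factor of differentiating myoblasts, was at 4.25 and 6.41 RPKM in WT and 0.39 and 1.07 in APRIL KO (-1.88, adjusted p = 0.0406). Pfkm, the muscle phosphofructokinase, was the 1 called gene of the 37 tested glycolysis and HIF-1 genes (-1.27, adjusted p = 0.0291). Trim72, outside the list, was at 2.26 and 2.77 RPKM in WT and 0.18 and 0.28 in APRIL KO (-1.51, adjusted p = 0.0146). Trim72, Myog and Chrna1 reached a mean of 1 RPKM only in WT groups, so the filter could let them in only with WT higher.

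The muscle difference was one between WT and both knockouts, with or without LPS. The summed level of the listed genes was 742 to 906 RPKM in the WT libraries with LPS and 741 without it, against 348 to 407 in APRIL KO with LPS and 362 without it, and 337 to 365 in BAFF KO with LPS. Tnnc2 was at 26.65 RPKM in unstimulated WT, 3.19 in unstimulated APRIL KO, and 2.54 and 3.15 in BAFF KO with LPS. APRIL KO against BAFF KO called none of the 18 genes, and its median over the list was -0.03. For Pfkm it gave -0.63 (limma adjusted p = 0.0636). In bulk RNA, fewer cells of a type and less RNA per cell cannot be told apart, and the labels give no muscle cells.

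**Figure D4:**
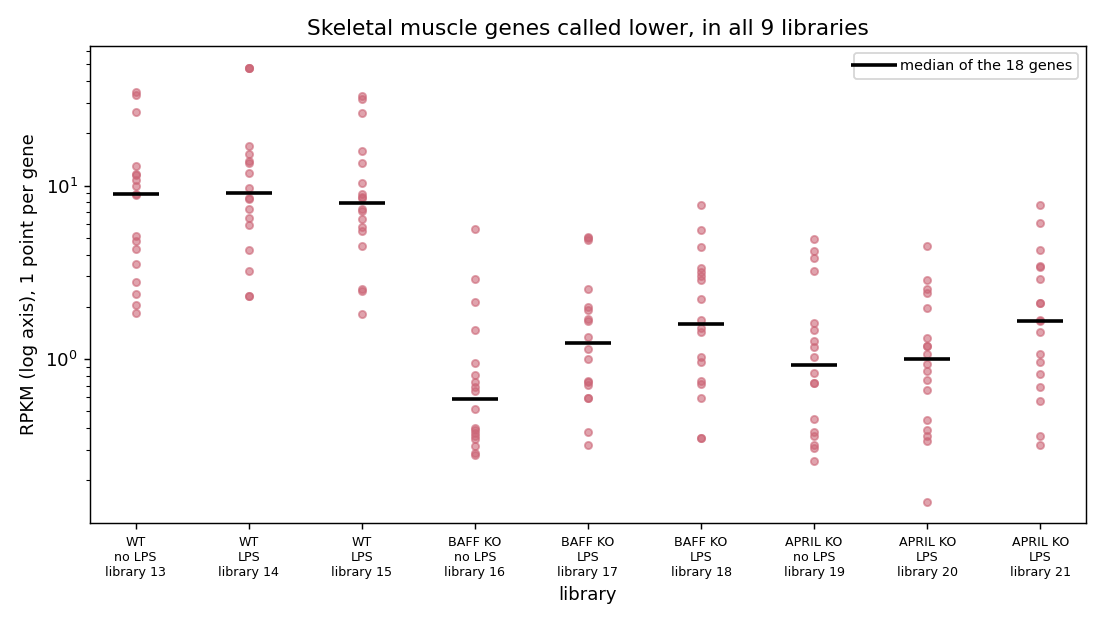
RPKM on a log axis (y) of the 18 called skeletal muscle genes, 1 point per gene, in each of the 9 libraries (x), with the median as a bar. The medians of the 3 WT libraries are high with and without LPS, and those of all BAFF KO and APRIL KO libraries are low. Pfkm differs less, at 7.08 to 8.82 RPKM in WT, 4.39 to 5.58 in BAFF KO and 4.94 in unstimulated APRIL KO.

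Defining macrophage markers moved little beside this. Csf1r, the receptor for the growth factor of macrophages, was at 255.7 and 244.6 RPKM in WT and 243.1 and 249.4 in APRIL KO (log2 difference -0.02, 95% interval -0.21 to 0.17). Adgre1, the F4/80 antigen, differed by 0.03 (95% interval -0.17 to 0.23), and limma called none of 12 macrophage markers, while voom called 1, Mertk. The summed level of these markers was 4940 and 5197 RPKM in WT and 5125 and 4841 in APRIL KO.

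Stromal genes varied between libraries of 1 genotype as much as between genotypes. Of 27 tested stromal, fibroblast and endothelial markers limma called 0 and voom 0, and the median was -0.51. Of these, 1 was lower and 0 higher at an unadjusted p below 0.05, beside 7.63% and 7.86% of all tested genes. Col3a1, a fibrillar collagen, was at 77.47 and 27.33 RPKM in WT and 2.87 and 18.56 in APRIL KO (log2 difference -2.44, 95% interval -4.64 to -0.24, adjusted p = 0.291). Col1a1, another fibrillar collagen, was at 69.13 and 8.67 RPKM in WT and 5.65 and 253.3 in APRIL KO (0.66, 95% interval -2.99 to 4.31). WT library 14 was higher than 15, and APRIL KO library 21 higher than 20, for both collagens. The summed level of the stromal, fibroblast and endothelial list was 3040 and 2511 RPKM in WT and 2180 and 2929 in APRIL KO. The list median was -1.50 without library 21, with 15 lower at an unadjusted p below 0.05, and 0.07 without library 20, with 4 higher; it was -0.17 without library 14 and -0.77 without library 15. The part of stromal RNA in the muscle difference was not tested. Lists of monocyte, neutrophil, dendritic, B, T and NK, mast, erythroid, osteoclast and adipocyte markers had no called member in limma or in voom. At an unadjusted p below 0.05, 3 of 10 erythroid and 3 of 9 mast cell markers were higher, beside 7.86% of all tested genes. Of 16 neutrophil markers 3 were higher and 4 lower (7.63% of all tested genes were lower). The erythroid median was 0.35 (0.11 without APRIL KO library 20, 0.68 without library 21) and the mast cell median 0.27.

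Ribosomal protein and respiratory chain genes had small, mostly negative differences. Limma called 0 of 77 ribosomal protein genes and voom 1, and the median was -0.26. At an unadjusted p below 0.05, 45 were lower and 0 higher, beside 7.63% and 7.86% of all tested genes. In 65 both APRIL KO libraries lay below both WT libraries (22.6% of all tested genes did so). The 45 became 10 without WT library 15, 17 without APRIL KO library 20 and 15 without library 21. The median was -0.29 in BAFF KO against WT. Gas5, a noncoding host of small nucleolar RNAs and the 1 tested gene of the RNA quality list, was at 53.76 and 46.64 RPKM in WT and 31.97 and 36.59 in APRIL KO (log2 difference -0.54, adjusted p = 0.13), and its part in these differences was not tested. Rps16, of the small ribosomal subunit, had the smallest p, at 788.6 and 686.4 RPKM against 537.4 and 514.6 (log2 difference -0.48, adjusted p = 0.145). Limma and voom each called 0 of 53 respiratory chain and ATP synthase genes, and the median was -0.21. At an unadjusted p below 0.05, 19 were lower, beside 7.63% of all tested genes. In 43 both APRIL KO libraries lay below both WT libraries. The 19 became 10 without library 15 and 11 without library 20. Ndufb3, a complex I subunit, was at 34.77 and 32.86 RPKM in WT and 23.66 and 23.08 in APRIL KO (-0.51, adjusted p = 0.0918).

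These are short genes, with a median length of 1439 and 1711 bases beside 3527.5 over all tested genes, and the difference between the genotypes moved with gene length. From the shortest to the longest quintile the median difference was -0.14, -0.07, -0.00, 0.06 and 0.14. Both APRIL KO libraries lay above both WT libraries for 149 of 1987 genes in the shortest quintile and for 991 in the longest. The WT libraries differed from each other in the same sense, by -0.09 in the shortest and 0.08 in the longest quintile for library 14 minus 15, while APRIL KO library 20 minus 21 gave -0.00 and -0.03 and BAFF KO library 17 minus 18 ran the other way, from 0.06 to -0.10. When each library was centred within 20 length bins, a step chosen after seeing the data, the median was -0.12 for ribosomal proteins and -0.13 for the respiratory chain, and 20 of the 21 called genes remained called. The part of length in single small differences was not otherwise tested.

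**Figure D5:**
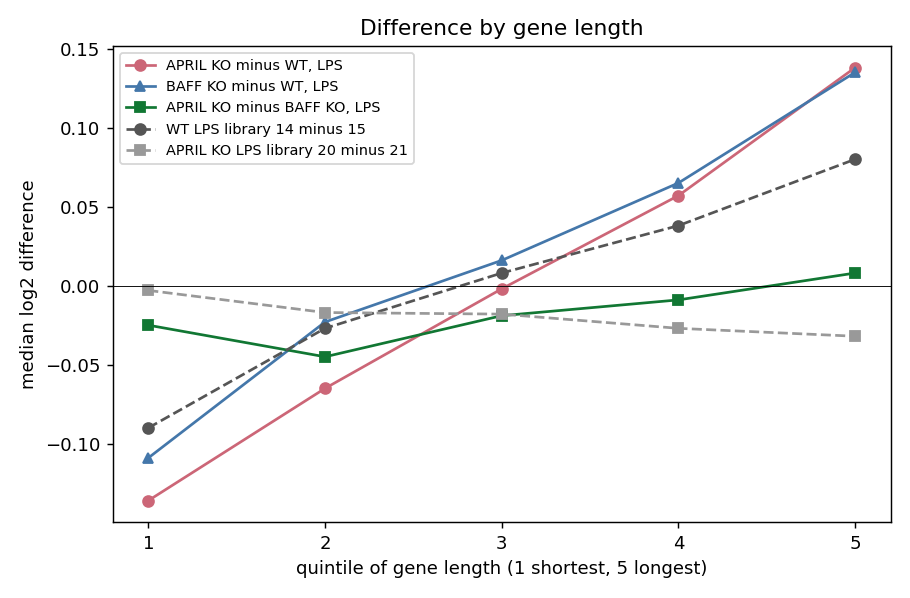
Median log2 difference (y axis) over tested genes in each quintile of gene length (x axis, 1 shortest, 5 longest) for the comparisons of genotypes and for pairs of libraries of 1 genotype. APRIL KO minus WT runs from -0.14 to 0.14, WT library 14 minus 15 from -0.09 to 0.08, and APRIL KO minus BAFF KO stays between -0.05 and 0.01.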

How the data were processed

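RNA of cultured mouse macrophages was sequenced as single reads of 85 bp, per the labels' protocols, with 2 library kits named, so strand is unclear; the submitters' processing notes name STAR and mm10. Counter, annotation and counting by strand: not given in the sources used here. RPKM values (length- and depth-scaled reads), as the authors deposited them, were available for 11164 genes in 18 columns. The 2 columns of a library number were averaged. The 9934 genes whose mean reached 1 RPKM in any of 6 groups were kept, put on the log2(RPKM + 1) scale, and fitted with limma 3.58.1 in R 4.3.3 (9 libraries, 6 group means, 3 residual degrees of freedom, eBayes with a trend, 2-sided, Benjamini-Hochberg), so fold changes of low genes are understated. Whole reads were recovered from the values for 100% of genes within 0.01 reads, and limma voom was run on them as an alternative; a count of 0 is listed at a floor per gene. The script was tested on simulated data. Members and 51 gene lists were chosen with earlier results of these data known. Named genes are the target, the largest called differences and, per list, called members or the member with the smallest p; others (Ptgs2, Gbp9, Gbp2 and the textbook cytokines and markers) were chosen for their role with values in view. Coordinates and biotypes come from GENCODE M21.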

Additional observations from a re-analysis of the deposited data

How the results depend on the processing

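The 21 calls of APRIL KO against WT under LPS became 16 with a pseudocount of 0.1, 30 with median ratio scaling, 27 with quantile normalization, 23 with the higher-index column alone, 28 with only the LPS libraries and 23 when centred within length bins; all 21 were at least 2-fold. They became 5 without a filter, 0 with the lower-index column alone (where Tnfsf13 had an adjusted p = 0.0584), 1 with only the 4 libraries compared, 84 with voom and 1361 with the 18 columns as separate samples; leaving out 1 library gave 1 to 24. The 18 skeletal muscle genes called lower became 3, 0, 0, 24 and 39 under the same 5 settings and 0 to 19 with a library left out. The difference of the LPS response between APRIL KO and WT gave 0, but 1 with the lower-index column, 8 with the 18 columns and 0 to 1 with a library left out. APRIL KO against BAFF KO under LPS gave 550, then 164 with the lower-index column, 1824 with the 18 columns, 837 with voom, 130 at 2-fold or more and 96 to 418 with a library left out. With the order of the library in its group as a replicate block the counts were 19, 0 and 411, with 17 of the muscle genes. The deviations of same-numbered libraries correlated between -0.18 and 0.12. Such correlations cannot tell if these libraries were paired, and no label pairs them. For 54 named genes, 972 values under alternatives included 0 reversed calls, 61 lost and 53 gained calls. The cause of these shifts was not tested. The LPS response could not be computed with only the LPS libraries or only the 4 libraries compared.

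With 2 libraries per group and 3 residual degrees of freedom, precision is limited: no gene with a difference under 2-fold was called between APRIL KO and WT. The lower-index columns are the shallower ones (1649338 to 1942218 reads, against 3472495 to 4078562 in the higher-index columns).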

Other observations

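Gm21887 and Gm47283, predicted genes annotated at the ends of chromosomes X and Y, were chosen after their values were seen. Gm21887 was at 119.0 and 104.0 RPKM in WT with LPS, 34.67 and 53.87 in APRIL KO, and 4.96 and 4.35 in BAFF KO (APRIL KO against WT -1.34, adjusted p = 0.0533; APRIL KO against BAFF KO 2.97, adjusted p = 0.000337). Gm47283 followed the same order at 39.32 and 36.79, 12.02 and 17.75, and 1.14 and 0.74 RPKM. Unstimulated libraries kept that order for Gm21887, at 152.1 RPKM in WT, 41.61 in APRIL KO and 11.67 in BAFF KO.

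Ibsp, a bone matrix sialoprotein, was at 41.44 RPKM in APRIL KO library 21 and at 0.18 to 0.27 in the other 8 libraries. Alpl, the alkaline phosphatase of osteoblasts, was at 2.84 RPKM in the same library and at most 0.26 in the others.

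Jchain, the joining chain of secreted antibodies, was at 1.90 and 6.67 RPKM in WT with LPS and 0.45 and 0.52 in APRIL KO (log2 difference -1.67, adjusted p = 0.185). Hba-a1, an alpha globin, was at 280.2 and 285.8 RPKM in WT and 591.9 and 386.5 in APRIL KO (0.76, adjusted p = 0.197).

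Across genes the SD of the log2 difference was 0.285 between the APRIL KO and WT means and 0.383 between the BAFF KO and WT means. Between single libraries it was 0.324 for APRIL KO libraries 20 and 21 and 0.29 for WT libraries 14 and 15. Means of 2 libraries vary less than single libraries, so these 2 kinds of SD cannot be set directly against each other.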
